A study of Mus musculus with 12 samples.

Results

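The genes described here are named after the enzymes that place and remove methyl groups on DNA and methyl or acetyl groups on histones. They were chosen by symbol: every gene named Dnmt, Tet1 to Tet3, Kat, Hdac, Kdm, Kmt or Setd with a number, as matched from its Ensembl identifier. This gave 70 of the 50600 genes in the count tables, of which 61 are protein coding and the others are pseudogenes or antisense transcripts. By name there were 9 Dnmt, 3 Tet, 11 Kat, 11 Hdac, 20 Kdm, 8 Kmt and 8 Setd genes. Their levels were measured by RNA sequencing of polyadenylated RNA from primary medullary thymic epithelial cells (mTECs), sorted into cells with high MHC class II (mTEC hi, 6 libraries) and low MHC class II (mTEC lo, 6 libraries). The mice were 6 to 8 weeks old and of the strain B6.B6CB-Psmb11tm1Smta, either Psmb11-/- (Psmb11-deficient) or Psmb11+/+ (WT). Psmb11 encodes beta5t, the proteasome subunit particular to the thymic cortex. Title, source name and strain gave the same genotype for 8 libraries, 2 per genotype and cell type. In the other 4 libraries, 2 per cell type, the title named the opposite genotype. Those 4 have an undisputed cell type, so they entered the comparison of mTEC hi with mTEC lo. They stayed out of the tests of genotype given here, apart from alternative fits, and are otherwise given as single values. The labels give neither sex nor the number of animals per library, so the tests measure the spread between libraries.

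DNA methyltransferases add a methyl group to cytosine, mostly where it is followed by guanine (CpG), and TET enzymes oxidise it as a step towards its removal. Lysine acetyltransferases (KAT) and histone deacetylases (HDAC) set the acetylation that opens or closes chromatin, while lysine methyltransferases (KMT, SETD) and demethylases (KDM) write and erase marks of active or silent genes. The mTEC hi population holds the mature, Aire-expressing cells, which transcribe a wide range of tissue-restricted genes for display to developing T cells, and the mTEC lo population holds immature and later post-Aire cells.

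Between 38791960 and 86793594 reads were counted in genes for each library, and the 70 enzyme genes took between 0.462% and 0.548% of them. The marker genes matched the sort labels: all 7 mature mTEC markers were higher in mTEC hi and all 5 immature markers were lower. Psmb11 was read at 0.847 to 1.63 CPM (read counts relative to library size) in libraries titled KO and at 7.10 to 12.2 CPM in those titled WT, so in the 4 disputed libraries it followed the title. Cell cycle genes summed to 781 to 886 CPM in mTEC hi and 190 to 225 CPM in mTEC lo. B cell markers summed to 69.1 to 73.6 against 11.5 to 17.7 CPM, and dendritic cell and macrophage markers to 546 to 596 against 69.4 to 95.7 CPM, with 6 of 6 and 9 of 9 higher in mTEC hi. Thymocyte markers summed to 173 to 314 against 47.7 to 122 CPM, with 7 of 12 called higher and all 12 above 0, and the 5 erythroid markers, all higher, to 18.5 to 21.7 against 1.52 to 3.16 CPM. Tuft cell markers went the other way, at 240 to 353 against 1148 to 1755 CPM, with 4 of 4 lower. Ptprc, the general marker of blood cells, was lower in mTEC hi, at 10.6 to 25.9 against 17.3 to 28.3 CPM. The part of dividing cells, blood cells or tuft cells in the results on the enzyme genes was not tested, and in sorted bulk RNA a change in the number of cells of a type and a change in RNA per cell cannot be told apart.

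Most of the enzyme genes differed between the cell types, and lower levels in mTEC hi were the more common. Of 65 tested genes, 18 were higher and 40 lower in mTEC hi, and 7 did not pass the threshold (edgeR quasi-likelihood test, Benjamini-Hochberg adjusted p under 0.05 over 23923 genes). The same test called 82.1% of all tested genes, 44.2% higher and 38.0% lower. The median log2 difference, mTEC hi over mTEC lo, was -0.45 over the enzyme genes and 0.08 over all genes tested. Well-measured genes as a whole leaned the same way, however. Among genes of at least 10 CPM, 39 of 57 enzyme genes were lower at an unadjusted p under 0.05, beside 61.0% of 11264 genes, and the medians were -0.52 and -0.30. Large changes were few: 8 enzyme genes were called at 2-fold or more higher (33.5% of all genes) and 6 at 2-fold or more lower (12.6%). The 8 include the antisense transcripts Dnmt3aos and Dnmt3bos and the pseudogene Kdm4dl. Among the 61 protein-coding genes, 5 were called at 2-fold or more higher and 6 at 2-fold or more lower. Dnmt3aos, Dnmt3c and Kdm4dl passed the filter on low counts through mTEC hi alone, so they could only be called higher. In 48 of the 65 tested genes the 6 mTEC hi libraries did not overlap the 6 mTEC lo libraries, which held for 68.8% of all genes tested. In the deposited TPM 28 of these 48 did not overlap either, and 20 did, so statements on overlap below are on the CPM scale. CPM values are scaled by TMM, the trimmed mean of M-values, which sets the typical gene equal between libraries. Scaling by library size alone moved the median of all genes to 0.37 and that of the enzyme genes to -0.16, and the calls to 24 higher (54.0% of all genes) and 34 lower (26.5%). With that scaling Dnmt1, Kdm3a, Kdm4c, Kdm6b, Kmt2d and Setd5 were no longer called lower, and Hdac1, Kat7, Kdm8, Kmt5c, Setd2 and Tet3 were called higher.

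**Figure D1:**
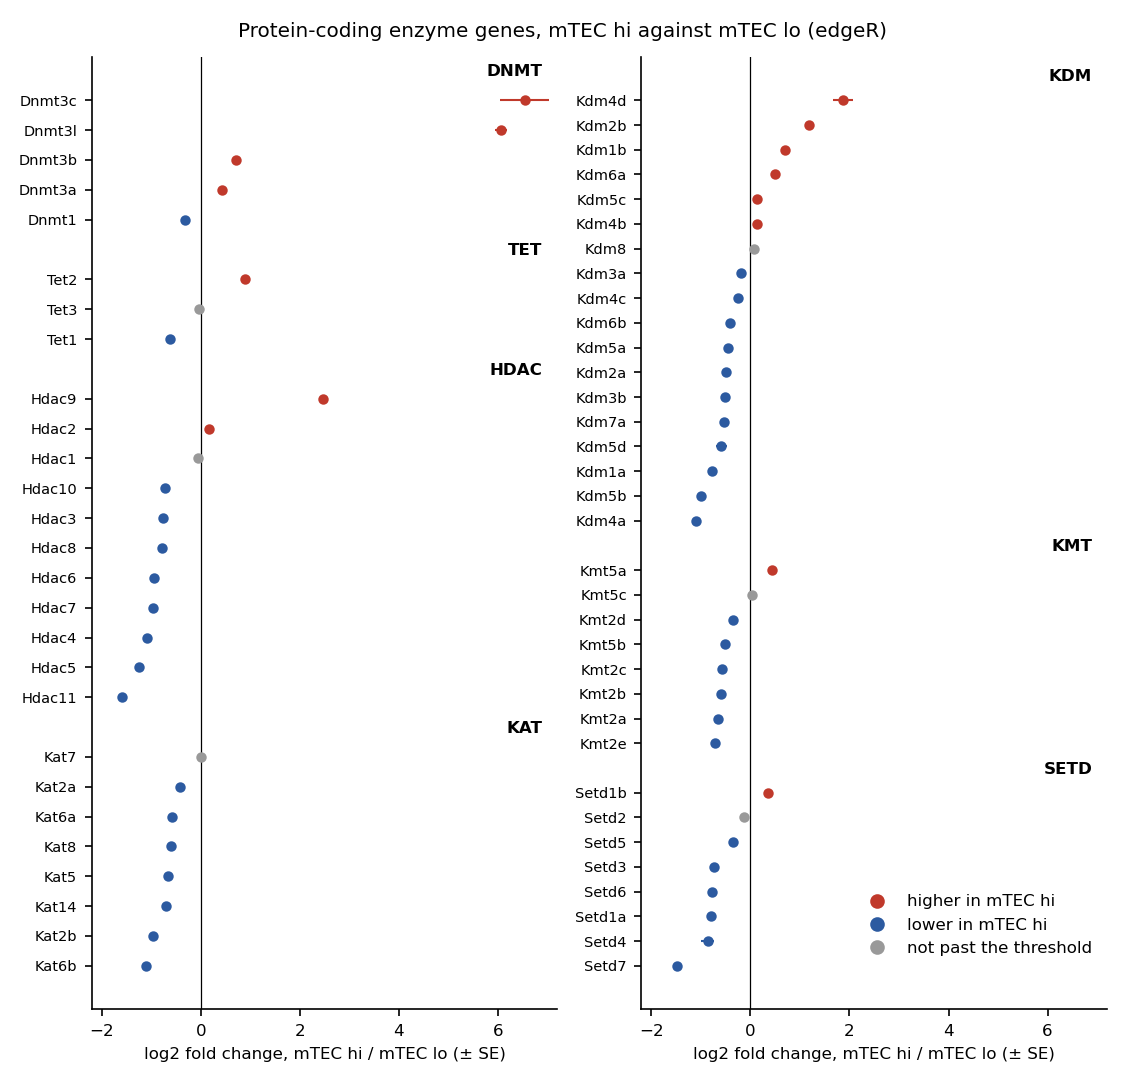
Log2 fold change of the 61 protein-coding enzyme genes in mTEC hi over mTEC lo (horizontal axis, points with standard errors from edgeR), by family and ordered within it. Red points were called higher (15 genes), blue points lower (40 genes), and grey points did not pass the threshold (6 genes); Dnmt3l and Dnmt3c stand far to the right of all others, and every KAT point but that of Kat7 lies left of 0.

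Most of the genes named Dnmt went against the common direction of the enzyme genes. Of 7 tested Dnmt genes 6 were higher in mTEC hi and 1, Dnmt1, was lower, beside 44.2% and 38.0% of all genes. The 6 include the antisense transcripts Dnmt3aos and Dnmt3bos, and Dnmt3c. Dnmt3aos and Dnmt3c had 6 and 4 reads over the mTEC lo libraries and passed the filter on low counts through mTEC hi alone. They could thus only be called higher. Of the protein-coding Dnmt genes that were well read in both cell types or passed the filter in both, Dnmt3a, Dnmt3b and Dnmt3l were higher and Dnmt1 lower. Dnmt3l (ENSMUSG00000000730.13), which encodes a cofactor of the de novo methyltransferases without catalytic activity of its own, ranged from 44.5 to 49.1 CPM in mTEC hi (median 47.4) and from 0.381 to 0.916 CPM in mTEC lo (median 0.712). The groups were far apart in all libraries, with a log2 difference of 6.05 ± 0.12 (SE, n = 6 libraries each, adjusted p = 4.2e-17). Per length, Dnmt3l stood at 57.0 ± 12.8 TPM (SD) in mTEC hi, the 8th highest of the enzyme genes, and at 0.575 ± 0.223 TPM, the 61st, in mTEC lo. It made up 47.3% ± 6.12 of the summed TPM of the 5 protein-coding Dnmt genes in mTEC hi and 1.2% ± 0.535 in mTEC lo.

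The catalytic de novo enzymes rose less. Dnmt3a had 117 to 130.0 CPM in mTEC hi (median 121) and 78.4 to 101 CPM in mTEC lo (median 92.8), a log2 difference of 0.43 ± 0.05 (adjusted p = 3.4e-07). Dnmt3b had 12.6 to 16.0 CPM (median 14.2) against 6.91 to 9.70 CPM (median 8.95), a log2 difference of 0.72 ± 0.08 (adjusted p = 1.6e-07). Neither gene overlapped between the cell types. Dnmt3c, a rodent duplicate of Dnmt3b known from the male germ line, had 0.911 to 1.47 CPM in mTEC hi and at most 0.0518 CPM in mTEC lo. This rested on 499 reads over the 6 mTEC hi libraries and 4 reads over the 6 mTEC lo libraries, so the fitted log2 difference of 6.54 ± 0.49 (adjusted p = 1.1e-09) depends on how near-zero counts are handled. Dnmt1, the maintenance methyltransferase that copies methylation after replication, was the 1 Dnmt gene called lower, with 87.1 to 100.2 CPM (median 89.9) in mTEC hi and 97.3 to 129.5 CPM (median 117) in mTEC lo. The ranges overlapped, and the log2 difference of -0.32 ± 0.05 (adjusted p = 1.9e-05) was -0.04 (adjusted p = 0.52) with scaling by library size alone.

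Noncoding relatives of these genes were near the limit of detection. The antisense transcripts Dnmt3aos (0.347 to 0.566 CPM in mTEC hi, 0 to 0.0377 CPM in mTEC lo) and Dnmt3bos (0.938 to 1.53 against 0.345 to 0.848 CPM) were called higher in mTEC hi, with log2 differences of 4.61 ± 0.48 and 1.02 ± 0.24. The 2 strand columns held nearly equal shares of the reads, so reads of an antisense gene and of the gene it lies across cannot be told apart. The pseudogene Dnmt3a-ps1 had 74 reads over the mTEC hi libraries and 0 over the mTEC lo libraries, so with 3 reads as the floor over the group its level in mTEC hi was at least 21.9-fold higher. Dnmt3l-ps1 had 27 and 35 reads and was not tested. Reads of a pseudogene can come from its parent gene, and their source was not tested.

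Position sets a further limit on Dnmt3l. On GRCm38 it lies on the plus strand of chromosome 10 from 78041947 to 78063622, and its first 1664 bases overlap the 5′ end of Aire, on the minus strand from 78030022 to 78043610. Of its 2988 exon bases, 67 (2.24%) are shared with exons of Aire. Aire, the transcription factor of promiscuous gene expression, had 1979 ± 186 CPM (SD) in mTEC hi against 17.6 ± 5.35 CPM, a log2 difference of 6.84. Icosl, a costimulatory ligand 5679 bases beyond the other end of Dnmt3l, had 526 ± 28 against 61.0 ± 5.01 CPM. The 3 neighbours were thus all higher in mTEC hi, and the part of Aire reads in the Dnmt3l count was not tested. Dnmt3b and Dnmt3c also lie together, 8921 bases apart on chromosome 2.

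CpG sites are what the DNA methyltransferases and TET enzymes act on, so CpG content was counted upstream of RefSeq transcript starts of the enzyme genes themselves. One window each is shown for Dnmt3l, Dnmt3a and Dnmt3b, for the class IIa deacetylases Hdac9 and Hdac4, which differed in opposite directions, and for Tet2, the TET gene that was higher. RefSeq windows (GRCm38.p6) were found for 49 of the 70 genes, and the 250 bases before each start were counted for CpG. Such a start can lie inside the annotated gene, and of the windows shown only that of Dnmt3b lies wholly before its gene. The Hdac9 window at the start of the gene held 0 CpG, and the Dnmt3l window nearest the gene start held 5. Neither of these is shown. The median was 17 CpG over the 73 windows of the enzyme genes, beside 6 over all 32817 windows. By the richest window of each gene, the genes higher in mTEC hi (13 genes) and those lower (31 genes) both had a median of 21 CpG. Hdac11 and Setd7, which had the largest falls, held 17 CpG each in windows that cross an exon and are not shown. Dnmt3l and Hdac9, with the 2 largest rises among coding genes above 10 CPM, were among the 4 genes with at most 5 CpG in every window. The others were Setd5, with 0 CpG and called lower in mTEC hi, and the antisense transcript Dnmt3aos, with 2 CpG and called higher. The windows below, 5′ to 3′ on the strand of the gene, have each CpG in capitals.
Dnmt3l, chr10:78049592-78049841, plus strand: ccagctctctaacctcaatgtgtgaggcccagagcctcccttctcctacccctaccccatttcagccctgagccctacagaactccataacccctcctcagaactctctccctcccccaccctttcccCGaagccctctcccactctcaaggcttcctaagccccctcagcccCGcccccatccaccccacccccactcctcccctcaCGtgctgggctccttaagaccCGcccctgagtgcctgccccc
Dnmt3a, chr12:3806730-3806979, plus strand: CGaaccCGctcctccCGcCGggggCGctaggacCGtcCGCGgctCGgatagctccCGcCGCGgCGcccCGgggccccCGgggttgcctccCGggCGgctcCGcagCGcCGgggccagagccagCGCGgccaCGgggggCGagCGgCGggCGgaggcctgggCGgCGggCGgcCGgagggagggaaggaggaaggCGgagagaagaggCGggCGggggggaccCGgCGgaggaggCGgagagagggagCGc
Dnmt3b, chr2:153649199-153649448, plus strand: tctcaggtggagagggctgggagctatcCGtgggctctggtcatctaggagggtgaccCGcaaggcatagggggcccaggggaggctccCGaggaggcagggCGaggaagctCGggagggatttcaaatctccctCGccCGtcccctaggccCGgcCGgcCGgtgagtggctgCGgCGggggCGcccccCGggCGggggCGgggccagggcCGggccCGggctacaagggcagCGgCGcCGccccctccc
Hdac9, chr12:34528890-34529139, minus strand: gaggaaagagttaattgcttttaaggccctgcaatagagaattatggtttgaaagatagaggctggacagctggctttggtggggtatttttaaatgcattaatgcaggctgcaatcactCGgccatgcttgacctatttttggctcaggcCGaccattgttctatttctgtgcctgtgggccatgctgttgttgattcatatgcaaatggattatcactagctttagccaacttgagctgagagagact
Hdac4, chr1:92180342-92180591, minus strand: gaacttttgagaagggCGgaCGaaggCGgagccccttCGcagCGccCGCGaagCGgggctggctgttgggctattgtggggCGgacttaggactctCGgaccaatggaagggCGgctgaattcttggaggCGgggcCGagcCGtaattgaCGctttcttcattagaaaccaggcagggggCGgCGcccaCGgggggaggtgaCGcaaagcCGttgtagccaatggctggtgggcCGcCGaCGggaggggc
Tet2, chr3:133544391-133544640, minus strand: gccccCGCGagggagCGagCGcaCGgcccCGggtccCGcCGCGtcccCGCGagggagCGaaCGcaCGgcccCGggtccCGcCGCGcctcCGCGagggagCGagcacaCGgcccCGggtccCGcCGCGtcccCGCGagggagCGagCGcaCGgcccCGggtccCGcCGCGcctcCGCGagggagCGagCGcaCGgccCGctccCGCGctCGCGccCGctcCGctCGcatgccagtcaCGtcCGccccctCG

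The Dnmt3l window shown held 4 CpG, and 44.4% of all windows held as few. The Hdac9 window shown held 2, and 29.1% of all windows held as few. The windows of Dnmt3a with 38, Dnmt3b with 21, Hdac4 with 23 and Tet2 with 51 CpG were among the richer, and 0.0670% of all windows held as many as that of Tet2. These are counts of letters in a reference sequence; methylation was not measured.

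**Figure D2:**
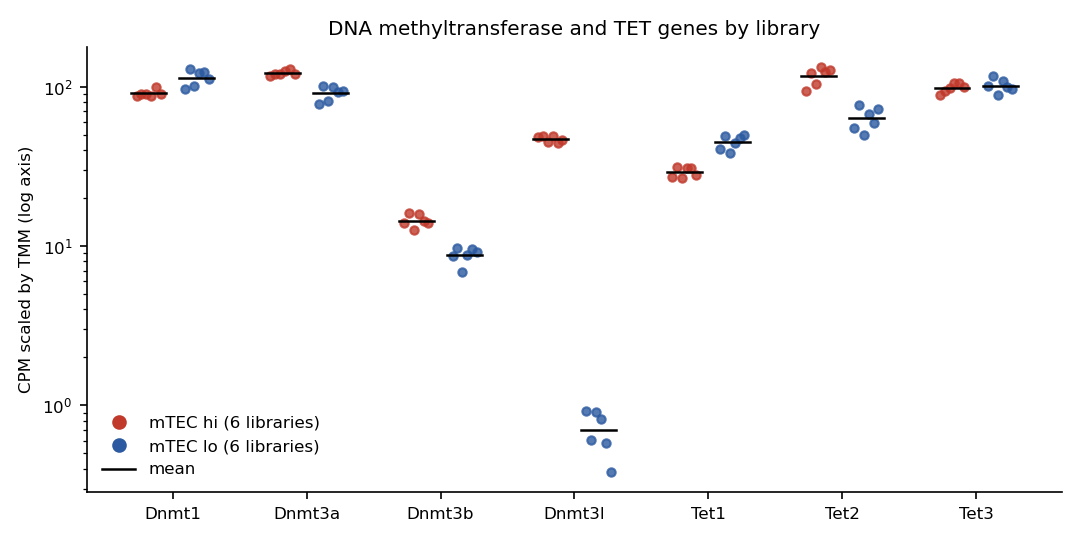
CPM scaled by TMM (vertical log axis) of 4 DNMT genes and the 3 TET genes in each of the 6 mTEC hi libraries (red) and 6 mTEC lo libraries (blue), with the mean as a black line. The Dnmt3l points lie between 44.5 and 49.1 CPM in mTEC hi and below 1 CPM in mTEC lo, while Tet3 overlaps between the cell types.

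The 3 TET genes moved in different directions. Tet2 had 93.7 to 132 CPM (median 123) in mTEC hi and 50.1 to 76.7 CPM (median 63.3) in mTEC lo, with no overlap and a log2 difference of 0.88 ± 0.06 (adjusted p = 2.1e-10). Tet1 went the other way, with 26.7 to 31.5 CPM (median 29.3) against 38.3 to 49.8 CPM (median 45.9) and a log2 difference of -0.62 ± 0.05 (adjusted p = 2.2e-09). Tet3 overlapped, with 88.0 to 106 CPM (median 98.4) against 88.2 to 117 CPM (median 100), and its log2 difference of -0.05 ± 0.06 (adjusted p = 0.47) was 0.24 (adjusted p = 0.0016) with scaling by library size alone. Per length, Tet2 made up 61.9% ± 1.93 of the summed TET TPM in mTEC hi and 41.8% ± 3.04 in mTEC lo, and Tet1 9.43% ± 1.52 against 22.2% ± 4.0.

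Among the 11 histone deacetylase genes 8 were lower in mTEC hi, 2 were higher and Hdac1 did not pass the threshold. The same test called 38.0% of all genes lower and 44.2% higher. Among all genes of at least 10 CPM, 61.0% were lower at an unadjusted p under 0.05. The exception in size was Hdac9 (ENSMUSG00000004698.10), a class IIa deacetylase that acts as a signal-dependent corepressor. It ranged from 68.6 to 78.8 CPM (median 74.5) in mTEC hi and from 12.2 to 14.5 CPM (median 13.5) in mTEC lo, a log2 difference of 2.47 ± 0.06 (adjusted p = 2.1e-16). Its class IIa relatives all fell. Hdac5 had 31.3 to 43.9 CPM (median 38.4) against 81.7 to 97.8 CPM (median 90.5), a log2 difference of -1.25 ± 0.08. Hdac4 had 32.8 to 40.1 CPM (median 37.5) against 71.9 to 84.0 CPM (median 80.2), a log2 difference of -1.10 ± 0.05, and Hdac7 changed by -0.97 ± 0.06. None of the 4 class IIa genes overlapped between the cell types in CPM. In TPM Hdac4 did, with 8.02 to 14.99 TPM against 14.5 to 23.8 TPM, and 22.4% of its exon length is shared with another gene. As a share of summed class IIa TPM, Hdac9 rose from 3.91% ± 0.596 in mTEC lo to 31.4% ± 1.49 in mTEC hi, while Hdac5 went from 49.9% ± 3.43 to 33.0% ± 2.29. These shares add to a whole within each library and so do not depend on its scaling.

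Hdac11, the class IV deacetylase, had the largest fall of all the enzyme genes, from 54.9 to 68.1 CPM (median 61.9) in mTEC lo to 19.6 to 21.7 CPM (median 20.4) in mTEC hi, a log2 difference of -1.59 ± 0.06 (adjusted p = 4.9e-14). Within its exons, 17.9% of the length is shared with another gene, and reads falling there may not be counted for it. Of the class I deacetylases, Hdac2 ranked 1st and Hdac1 2nd of the enzyme genes per length (mean TPM) in both cell types. Hdac3 ranked 12th in mTEC hi and 5th in mTEC lo, and Hdac8 54th and 52nd. Hdac2 had 143 to 161 CPM (median 158) against 130 to 150 CPM (median 137). Those ranges overlapped, the log2 difference was 0.17 ± 0.05 (adjusted p = 0.0024), and without the 4 libraries of title number 1 it was 0.11 (adjusted p = 0.07). Hdac3 and Hdac8 fell by 0.75 and 0.78 on the log2 scale, as did Hdac6, the cytoplasmic tubulin deacetylase, by 0.94 and Hdac10 by 0.72.

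Lysine acetyltransferase genes showed 7 lower and none higher of 8 tested, with Kat7 not past the threshold. Beside them, 38.0% of all genes were called lower and 44.2% higher, and 61.0% of genes of at least 10 CPM were lower at an unadjusted p under 0.05. Kat6b, a MYST-family enzyme that acetylates histone H3, had 26.9 to 32.5 CPM (median 30.2) in mTEC hi and 54.7 to 70.3 CPM (median 65.2) in mTEC lo, a log2 difference of -1.11 ± 0.05 (adjusted p = 8.1e-13). Kat2b (PCAF), a coactivator acetyltransferase, had 38.8 to 43.3 CPM (median 40.4) against 72.8 to 85.3 CPM (median 80.9), a log2 difference of -0.97 ± 0.05. Kat14, a subunit of the ATAC coactivator complex, had 19.2 to 22.7 CPM (median 19.9) against 30.7 to 35.6 CPM (median 33.3), a log2 difference of -0.71 ± 0.06, and 14.7% of its exon length is shared with another gene. These 3 genes did not overlap between the cell types. Kat5, Kat8, Kat6a and Kat2a fell by 0.66, 0.60, 0.57 and 0.42, and Kat7 stayed at 0.01 ± 0.04. With scaling by library size alone the 7 falls were still called and Kat7 was called higher at a log2 difference of 0.30. The 3 Kat pseudogenes were under 1 CPM in both cell types and were not tested.

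The 20 genes named Kdm were split, with 7 higher, 11 lower and 2 not past the threshold, beside 44.2% and 38.0% of all genes called higher and lower. With scaling by library size alone they were 8 higher and 8 lower, beside 54.0% and 26.5%. Kdm2b, the CpG-binding subunit of a Polycomb complex and an H3K36 demethylase, had 49.2 to 58.6 CPM (median 53.7) in mTEC hi and 21.6 to 25.8 CPM (median 23.7) in mTEC lo, a log2 difference of 1.17 ± 0.05 (adjusted p = 1.0e-12). Its paralog Kdm2a was lower by 0.49 ± 0.05. Kdm1b (LSD2) had 186 to 198 CPM (median 196) against 112 to 130 CPM (median 120.0), a log2 difference of 0.69 ± 0.04 (adjusted p = 1.3e-10). Kdm1a (LSD1), the catalytic subunit of CoREST corepressor complexes, changed in the opposite direction, with 93.0 to 97.4 CPM (median 95.3) against 157 to 168 CPM (median 164) and a log2 difference of -0.78 ± 0.04 (adjusted p = 5.0e-12). None of these genes overlapped between the cell types. The order of the 2 LSD genes per length therefore differed: Kdm1b held 58.8% ± 1.14 of their summed TPM in mTEC hi and 32.7% ± 1.60 in mTEC lo. Likewise Kdm2b held 42.8% ± 2.64 of the KDM2 sum in mTEC hi and 19.5% ± 1.51 in mTEC lo. Kdm6a (UTX), an H3K27 demethylase, rose by 0.49 ± 0.05 while Kdm6b (JMJD3) fell by 0.41 ± 0.07.

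Kdm4a and Kdm5b had the largest falls among the demethylases. Kdm4a, an H3K9 and H3K36 demethylase, had 90.4 to 119 CPM (median 107) in mTEC hi and 203 to 263 CPM (median 221) in mTEC lo, a log2 difference of -1.09 ± 0.06 (adjusted p = 3.2e-11). Kdm5b, which removes H3K4 methylation, had 64.5 to 72.3 CPM (median 70.4) against 132 to 149 CPM (median 139), a log2 difference of -1.0 ± 0.04. Both pairs of ranges were far apart. At low levels, Kdm4d had 2.04 to 4.20 CPM (median 2.79) against 0.47 to 1.04 CPM (median 0.783), a log2 difference of 1.87 ± 0.20. The neighbouring pseudogene Kdm4dl, 10525 bases away, had 0.895 to 1.54 against 0.0155 to 0.292 CPM, a log2 difference of 3.44 ± 0.37. Kdm4dl had 42 reads over the mTEC lo libraries and passed the filter on low counts through mTEC hi alone, so it could only be called higher. Reads shared by such near copies cannot be told apart here. Kdm5c (0.14) and Kdm4b (0.13) were called higher with ranges that overlapped, and Kdm8 and Kdm6bos did not pass. Kdm5d, on the Y chromosome, was read in all 12 libraries and was called lower by 0.59 ± 0.11, with ranges that overlapped. Within mTEC lo it ranged from 12.3 CPM in L2_WT to 22.2 CPM in L3_WT. Kdm5c and Kdm6a, both called higher, lie on the X chromosome. The labels do not give sex, and its part in the values of Kdm5d, Kdm5c and Kdm6a was not tested.

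Of the 16 genes named Kmt or Setd, 12 were lower in mTEC hi, 2 were higher and 2 did not pass. Of all genes tested, 38.0% were called lower and 44.2% higher. Of those at 10 CPM or more, 61.0% were lower at an unadjusted p under 0.05. The KMT2 enzymes methylate H3K4 at promoters and enhancers, apart from Kmt2e, for which no such activity is established. Kmt2e had 83.0 to 111 CPM (median 100) against 131 to 184 CPM (median 170), Kmt2a 109 to 148 CPM (median 134) against 157 to 239 CPM (median 213), and Kmt2b 82.0 to 104 CPM (median 91.0) against 116 to 163 CPM (median 142). The log2 differences were -0.71 ± 0.05, -0.66 ± 0.06 and -0.59 ± 0.06, with no overlap between cell types but wide ranges within mTEC lo. Kmt2c and Kmt2d fell by 0.57 and 0.35, and their ranges overlapped. Kmt5a, the H4K20 monomethyltransferase tied to the cell cycle, was the 1 Kmt gene called higher, with 98.7 to 107 CPM (median 102) against 72.9 to 79.4 CPM (median 75.0) and a log2 difference of 0.44 ± 0.04 (adjusted p = 2.7e-08). The enzymes that add further methyl groups at H4K20 did not follow it: Kmt5b fell by 0.52 and Kmt5c had a log2 difference of 0.04 ± 0.08 (adjusted p = 0.65). Kmt5a made up 42.4% ± 2.10 of the summed KMT5 TPM in mTEC hi and 31.8% ± 2.07 in mTEC lo.

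Setd7, a lysine methyltransferase of histone H3 and of other proteins, had the second largest fall of all the enzyme genes, from 114 to 125 CPM (median 121) in mTEC lo to 38.2 to 47.1 CPM (median 42.6) in mTEC hi, a log2 difference of -1.48 ± 0.05 (adjusted p = 3.0e-14). The paralogs Setd1a and Setd1b, catalytic subunits of the main H3K4 trimethylating complexes, moved in opposite directions. Setd1a had 13.2 to 17.4 CPM (median 16.6) against 21.3 to 33.1 CPM (median 28.3), a log2 difference of -0.79 ± 0.07, and 52.3% of its exon length is shared with another gene. Setd1b had 76.6 to 96.3 CPM (median 89.0) against 57.4 to 77.6 CPM (median 69.7), ranges that overlapped, and a log2 difference of 0.36 ± 0.06 (adjusted p = 1.6e-05). Setd4 had 4.09 to 5.58 CPM (median 4.74) against 6.75 to 10.3 CPM (median 8.79), a log2 difference of -0.86 ± 0.12. Setd6, Setd3 and Setd5 fell by 0.77, 0.74 and 0.35, and Setd2, which trimethylates H3K36, did not pass at -0.12 ± 0.07.

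**Figure D3:**
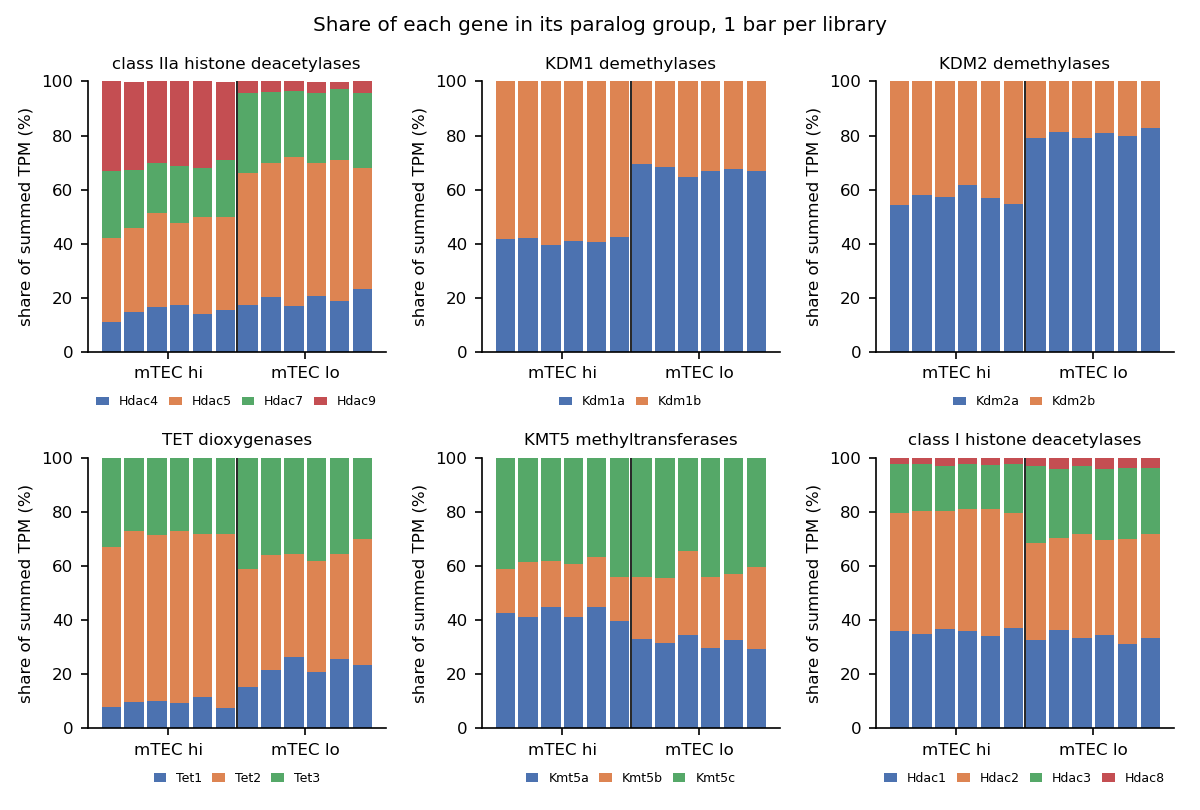
Share of each gene in the summed TPM of its paralog group (vertical axis, percent), with 1 stacked bar per library, 6 mTEC hi to the left of the line and 6 mTEC lo to the right. The Hdac9, Kdm1b, Kdm2b and Tet2 shares are larger in each mTEC hi library than in any mTEC lo library, while the Hdac1 share overlaps.

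Summed over its protein-coding genes, each family gave the same picture on the CPM scale, with values but no test. The Dnmt sum was 276 ± 8.37 CPM in mTEC hi against 214 ± 22.6 CPM, and the Tet sum 245 ± 22.3 against 210 ± 22.6 CPM. The Kat sum was 421 ± 12 against 621 ± 30.7 CPM, the Hdac sum 575 ± 7.95 against 754 ± 21.3 CPM and the Setd sum 563 ± 44.3 against 750.1 ± 38.5 CPM. The Kmt sum was 874 ± 71.6 against 1176 ± 140.1 CPM and the Kdm sum 1551 ± 68.6 against 1860.2 ± 103 CPM. Directions of the Dnmt, Tet, Kat, Hdac and Setd sums also held by library size alone and in TPM, whereas the Kdm sum reversed on both scales (1.57% and 9.40% higher in mTEC hi) and the Kmt sum in TPM (9.87% higher).

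Genes that work with these enzymes were taken from lists of pathway members. As a background, genes of at least 10 CPM had a median log2 difference of -0.30, with 61.0% of them lower at an unadjusted p under 0.05, and the test at the adjusted threshold called 38.0% of all genes lower. Of 34 cofactors of the complexes, 28 were lower in mTEC hi and 2 higher (median log2 difference -0.42). They included Mta1 and Mta2 of the NuRD deacetylase complex, which fell by 1.5 and 0.82, Rcor2 of CoREST, which fell by 1.27, and Msl1, the partner of Kat8, which fell by 1.10. The H3K4 complex subunits Wdr5, Rbbp5, Ash2l and Men1 fell by 0.64, 0.51, 0.54 and 0.89. Of 31 other histone methyltransferase genes 18 were lower and 8 higher (median -0.30, the value of all genes of at least 10 CPM), and the H3K27 pair split, with Ezh2 at 1.23 ± 0.06 and Ezh1 at -0.95 ± 0.04. Of 15 other acetyltransferases and sirtuins 10 were lower and 2 higher (median -0.41), and of 8 other JmjC-domain genes 6 were lower and 1 higher (median -0.55). Sirt1, an NAD-dependent deacetylase, was higher, with 549 ± 41.5 CPM in mTEC hi against 72.3 ± 5.70 CPM, a log2 difference of 2.93 ± 0.06.

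Of 16 readers and partners of DNA methylation 9 were lower and 5 higher, and their median of -0.26 was near the background of -0.30. Uhrf1, which recruits Dnmt1 to replicating DNA, had 92.3 ± 4.23 against 12.8 ± 1.42 CPM, a log2 difference of 2.85 ± 0.07, in the opposite direction to Dnmt1. Uhrf1 and Ezh2 are also known as genes of dividing cells, and all 16 cell cycle genes were higher in mTEC hi; their part in these 2 rises was not tested. Mbd2, which binds methylated DNA, fell by 1.25.

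The genotypes were compared within each cell type over the 8 libraries with undisputed labels. No enzyme gene passed the threshold in either cell type. In mTEC hi edgeR called 0 of 67 tested enzyme genes, as against 0.00375% of 26642 genes, and 7 had an unadjusted p under 0.05 (3.45% of all genes), all of them lower in Psmb11-deficient cells (1.79%). In mTEC lo it called 0 of 67 (0.015%), and 18 had an unadjusted p under 0.05 (11.3%), 17 of them lower (6.0%). DESeq2 called 0 in mTEC hi (0.0113% of all genes) and 3 in mTEC lo (0.593%): Kmt2a, Kmt2d and Tet2, all lower. The median log2 difference, Psmb11-deficient over WT, was -0.10 in mTEC hi and -0.11 in mTEC lo, with 52 and 47 of 67 genes below 0, and the median of all genes was 0.01 and 0. Both Psmb11-deficient libraries lay below both WT libraries for 28 of the 67 genes in mTEC hi and 31 in mTEC lo, beside 17.7% of all genes in each. In each cell type these Psmb11-deficient libraries had title numbers 1 and 2 and the WT libraries 2 and 3. Genotype and title number were thus partly confounded, and their parts cannot be told apart. The model had 4 residual degrees of freedom. In simulated counts it recovered 2% of 1.25-fold changes in mTEC hi and 6% in mTEC lo, and 54% and 50% of 1.5-fold changes. Differences of this size can therefore be missed. With genotype by title for all 12 libraries, 1 enzyme gene in mTEC hi and 12 in mTEC lo had unadjusted p under 0.05. The medians over the enzyme genes were then -0.05 and -0.08, and 848 and 3732 of all 26372 genes had such a p. By source name 7 and 6 enzyme genes had it (714 and 1677 of all genes), with medians of -0.07 and -0.05.

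Tet2 had the lowest p in mTEC hi, with 93.7 and 104 CPM in the Psmb11-deficient and 132 and 128 CPM in the WT libraries, a log2 difference of -0.39 ± 0.09 (adjusted p = 1). In mTEC lo it had 55.2 and 50.1 against 67.3 and 72.8 CPM, a log2 difference of -0.42 ± 0.09 (adjusted p = 0.18). These groups of undisputed libraries did not overlap in either cell type. By title over all 12 libraries Tet2 overlapped in mTEC hi, where H3_KO had 123.0 and H1_WT 122.3 CPM, but not in mTEC lo. Tet1 and Tet3 were also below 0 in both cell types, without passing. Kmt2d had 155 and 173 against 252 and 219 CPM in mTEC lo (-0.53 ± 0.11, adjusted p = 0.14) and 132 and 162 against 179 and 184 CPM in mTEC hi (-0.30 ± 0.11, adjusted p = 1). Kmt2a had 157 and 187 against 239 and 225 CPM in mTEC lo (-0.44 ± 0.10, adjusted p = 0.18) and 109 and 119.5 against 143 and 136 CPM in mTEC hi (-0.28 ± 0.10, adjusted p = 1). All KMT2 genes, the large H3K4 methyltransferases and their relative Kmt2e, had both Psmb11-deficient libraries below both WT libraries in both cell types.

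In mTEC lo the other KMT2 genes differed by -0.40 (Kmt2c), -0.35 (Kmt2e) and -0.24 (Kmt2b), and in mTEC hi by -0.18, -0.19 and -0.23, with adjusted p between 0.24 and 1. Setd1b differed by -0.23 in mTEC hi and -0.16 in mTEC lo. By contrast the mTEC hi library titled H3_KO, whose labels conflict, had the highest or nearly the highest KMT2 levels: Kmt2a stood at 148 CPM and Kmt2c at 134 CPM, above every other mTEC hi library. On the log2 scale H3_KO over H3_WT was 0.12, -0.02, 0.25, 0.01 and 0.15 for Kmt2a to Kmt2e and -0.05 for Tet2. In mTEC lo, L3_KO over L3_WT was -0.16, 0.23, -0.17, 0.02 and -0.12, and -0.30 for Tet2. The 1 enzyme gene above 0 at an unadjusted p under 0.05 in mTEC lo, named after its value was seen, was Dnmt3l, with 0.916 and 0.916 against 0.821 and 0.381 CPM. No enzyme gene was called for a difference of the genotype effect between the cell types (0 of 67, as against 0.0% of all genes, with edgeR; 0 with DESeq2, as against 0.0338%). At an unadjusted p under 0.05 there was 1 such gene (4.41% of all genes), Kdm4dl. Kdm4dl, which is near zero in mTEC lo, had an interaction of 2.45 ± 1.07, Dnmt3a of 0.24 ± 0.11 and Dnmt1 of 0.24 ± 0.12 on the log2 scale, each with an adjusted p of 1.

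**Figure D4:**
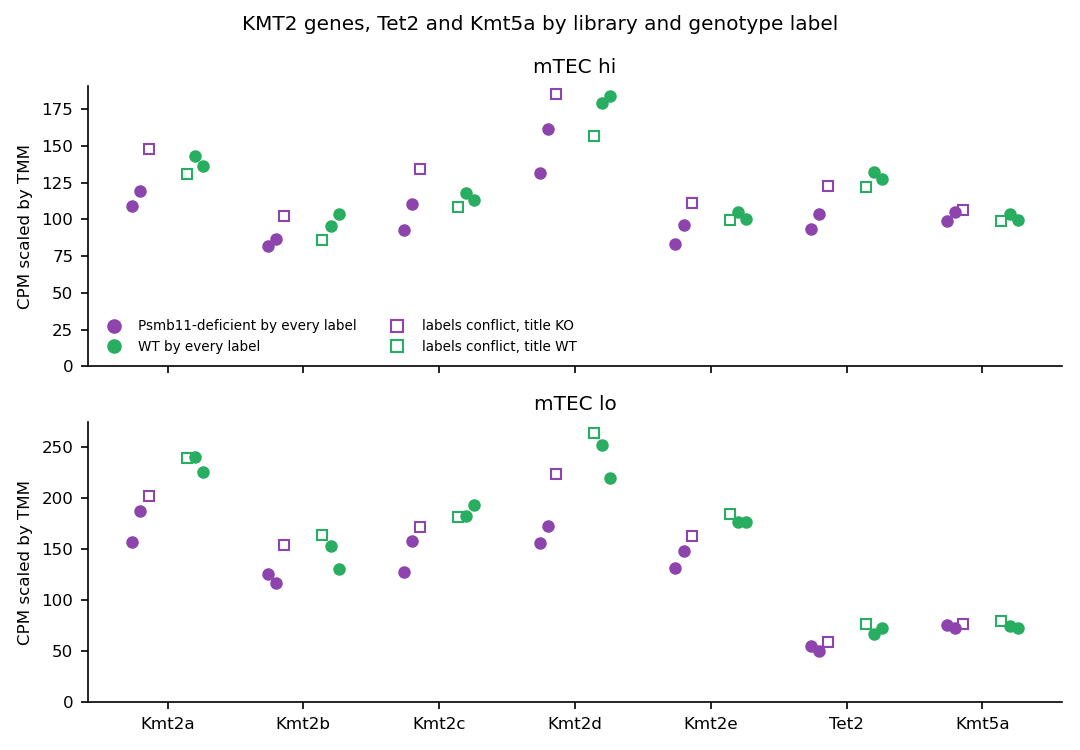
CPM scaled by TMM (vertical axis, from 0) of the 5 KMT2 genes, Tet2 and Kmt5a in each mTEC hi library (top) and mTEC lo library (bottom). Purple marks titles KO and green titles WT; filled circles are libraries whose labels agree and open squares those whose labels conflict. Filled purple points lie below filled green ones for the KMT2 genes and Tet2 and overlap them for Kmt5a.

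Transcript length moved with the genotype difference. Among all protein-coding genes of at least 10 CPM, those with transcripts under 2000 bases had a median log2 difference of 0.06 in mTEC hi and 0.11 in mTEC lo, and those of 8000 bases or more -0.12 and -0.22. The 7 enzyme genes of 8000 bases or more, which hold Kmt2a, Kmt2c and Kmt2d, had medians of -0.18 and -0.37. The 7 enzyme genes under 2000 bases had medians of 0.03 and 0.05. The part of transcript length in the lower KMT2 and Tet2 values was not tested. Thymocyte markers moved with the genotype too: 12 of 12 were above 0 in both cell types, with summed levels of 188 to 314 against 173 to 175 CPM in mTEC hi and 81.7 to 122 against 47.7 to 56.5 CPM in mTEC lo. Their part in the genotype values was not tested. For Kdm5d, on the Y chromosome, both Psmb11-deficient libraries lay above both WT libraries in mTEC hi, and the groups overlapped in mTEC lo. For Kdm5c and Kdm6a, on the X chromosome, the Psmb11-deficient libraries lay below the WT libraries in both cell types. The part of sex in the genotype values was not tested.

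**Figure D5:**
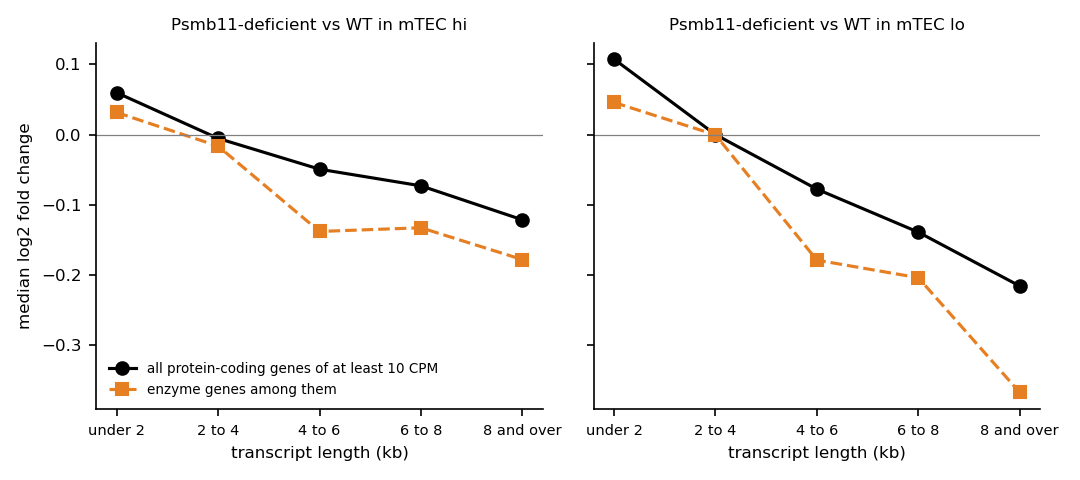
Median log2 fold change of Psmb11-deficient over WT (vertical axis) by transcript length in kilobases (horizontal axis), in mTEC hi (left) and mTEC lo (right), for all protein-coding genes of at least 10 CPM (black) and the enzyme genes among them (orange). Both lines go down from left to right, to -0.12 and -0.18 in mTEC hi and to -0.22 and -0.37 in mTEC lo.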

How the data were processed

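RNA was sequenced from 12 libraries of sorted mTECs. Per the submitters' processing notes the tools were CASAVA 1.8.2, RSEM 1.2.28 and STAR 2.5.1b, and GRCh38 is named as the build, although the genes carry mouse identifiers; no source used here names the annotation. The authors deposited raw read counts per gene, without strand and for each strand, RSEM expected counts, and TPM. The 2 strand columns held nearly equal shares, so the count without strand was used. The RSEM totals were 0.507 to 0.535 of the read counts; expected counts were rounded to whole numbers for an alternative fit. Reads without a feature were 13.0% to 15.8% of all reads in the count files, unmapped and multimapping reads included, in mTEC hi and 7.42% to 11.1% in mTEC lo, and stayed out of library sizes.

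Symbols were matched by stable identifier to GENCODE M21 (GRCm38): 50376 of 50600 identifiers matched, 45737 with the same version, and 57 of the 70 enzyme genes with the same version. The enzyme genes and the gene lists were chosen with earlier results of these data known. Low counts were removed by filterByExpr (minimum 10 per library, 15 in total), and counts were scaled by TMM and tested by the quasi-likelihood test of edgeR 4.0.16 in R 4.3.3, with Benjamini-Hochberg adjustment over all tested genes and a threshold of 0.05. The fit of the cell types used 12 libraries, and genotype class was its covariate. The genotypes were compared in a model of 4 groups over 8 libraries, and the interaction was a contrast of it. Standard errors are the log2 fold change over the root of F. The fits were tested on simulated data first. Whether the replicate numbers in the titles pair the samples is not known. Correlations of deviations from group means between same-numbered libraries ran from -0.031 to 0.097. Means of so few libraries cannot decide it, and the main fits held no block.

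By the rule for named genes, every Dnmt and Tet gene with reads was named, with the 3 largest called rises and falls of each family among genes of at least 1 CPM, and for the genotypes the 5 lowest p. Genes named beyond it are family members described beside these. The alternatives were DESeq2 1.42.0, RLE factors, library size alone, no filter, RSEM counts, a 1.5-fold minimum, each library left out, the replicate block, and other genotype sources. Leaving out the libraries of title number 1, and the title genotype with a block, were added after the data were seen. Total counts set the precision; intervals from reads would cover counting error only.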

Additional observations from a re-analysis of the deposited data

Results flagged for a closer look

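Among the named enzyme genes, 72 groups of 6 libraries were examined for a library that stands apart from the other 5, and 3 were found, where chance gives about 1 in 20 groups. Dnmt1 was highest, at 100.2 CPM, in the mTEC hi library titled H3_KO, whose genotype labels conflict. Setd1a was lowest, at 13.2 CPM, in the mTEC hi library titled H1_KO. Dnmt3c was highest, at 0.0518 CPM, in the mTEC lo library titled L2_KO, which held 3 of the 4 reads of that gene in mTEC lo.

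For 2 genes the Psmb11-deficient libraries lay on opposite sides of the WT libraries in the 2 cell types. Hdac8 was above WT in mTEC hi and below it in mTEC lo, with an interaction of 0.40 ± 0.20 on the log2 scale, and Setd6 was below in mTEC hi and above in mTEC lo, with -0.22 ± 0.18. The test of the interaction gave an adjusted p of 1 for both (edgeR).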

How the results depend on the processing

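Counts of enzyme genes called between the cell types stayed within 1.5 times under each alternative except a minimum change of 1.5-fold, which left 11 higher and 20 lower. Enzyme genes lower in Psmb11-deficient mTEC lo were 0 with edgeR, 3 with DESeq2, 7 with no filter on low counts, and 0 to 5 with each library left out: 1 without Psmb11-deficient replicate 1 (Tet2) and 5 without replicate 2. The cause was not tested. Tet3 reversed to 0.052 without the libraries of title number 1, 0.020 with DESeq2 and with RLE factors, 0.029 with RSEM counts and 0.24 with library size alone. The percent difference of family sums, mTEC hi against mTEC lo, was on the main scale 28.7 for Dnmt, -23.8 for Hdac, -32.2 for Kat, -16.6 for Kdm, -25.7 for Kmt, -24.9 for Setd and 16.4 for Tet. By library size alone it was 56.8, -7.19, -17.3, 1.57, -9.54, -8.55 and 41.6 in that order, and in RSEM TPM 144.5, -6.57, -13.4, 9.40, 9.87, -12.0 and 50.7. With a replicate block by title number 18 enzyme genes were higher and 41 lower between the cell types, and 0 were called between genotypes. With matching titles as the block it was 18 and 40 between the cell types. Whether the numbers pair the samples is not known. For named genes, 919 values kept their direction and call, 12 gained and 10 lost it, and 5 reversed. Taking genotype for all 12 libraries from either label alone called 0. Depth limits the 7 genes under 1 CPM in both cell types, of which Dnmt3l-ps1 had 27 and 35 reads in all; 5 of the 70 were too low to be tested between the cell types.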
